A study of Mus musculus with 2 samples.

Results

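The genes described here carry iron into erythroid cells, store it and sense it. They are the transferrin receptor genes Tfrc and Tfr2, the iron transporter genes Slc11a2 and Slc40a1, the ferrireductase gene Steap3, the ferritin genes Fth1 and Ftl1, the iron regulatory protein genes Ireb2 and Aco1, and the ferritin receptor gene Ncoa4. They were chosen by symbol, through probe sets annotated to exactly 1 gene. Of these 10 genes, 9 were measured, each by 1 probe set, among 17874 genes in all. Ftl1, which encodes the ferritin light chain, was not analysed here.

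Expression was measured on 2 Affymetrix mouse arrays, 1 at 0 h and 1 at 3 h. Both samples were colony-forming unit erythroid (CFU-E) cells, late erythroid progenitors that normally depend on erythropoietin, from fetal livers of embryos at gestational day 13.5. Per the protocols both lacked the erythropoietin receptor (EpoR-/-, BALB/c), so no sample with the receptor stands beside them, whereas the genotype label of both reads Epo KO, and a label for the strain is given at 0 h only. Red cells were lysed, livers were pooled (40 to 50 per sort), and cells with myeloid, lymphoid, megakaryocytic or TER-119 surface markers were removed with antibodies. The cells were then deprived of growth factors for 1 h. They were lysed at once (0 h) or held for 3 h in Panserin medium (3 h). Under treatment the 3 h sample is labelled with supplemental growth factors, while its protocol says that none were added, so time is used to name the samples.

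Erythroid cells take up iron as transferrin bound to the receptor encoded by Tfrc. In the endosome Steap3 reduces the iron and the transporter encoded by Slc11a2 passes it to the cytosol, from where mitochondria use it for haem. Excess iron is stored in ferritin, which Ncoa4 delivers to lysosomes for release, or leaves through ferroportin, the product of Slc40a1. When iron is scarce, the iron regulatory proteins encoded by Aco1 and Ireb2 bind hairpins in messenger RNAs, which stabilises that of Tfrc and blocks translation of those of ferritin and ferroportin.

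Among the 9 measured iron genes, Tfrc was the 1 that was higher at 3 h by 1.5-fold or more, and none was lower by as much. Ireb2 and Ncoa4 were higher by less than that, ferroportin Slc40a1 was somewhat lower, and the ferritin heavy chain, Steap3 and Slc11a2 were nearly level. All values are log2 expression as deposited, and differences are 3 h minus 0 h. All 9 genes lay above a floor of 5.70 (the median over all values of all genes) on both arrays. Of 9284 genes that reached this floor on at least 1 array, 6.94% were higher by 1.5-fold or more and 4.80% lower by as much, so 1 of 9 is near the share among all genes. With 1 array per group there is no replicate spread and no test. How precise each value is cannot be told from so few arrays, and a difference of this size has no replicate check.

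**Figure D1:**
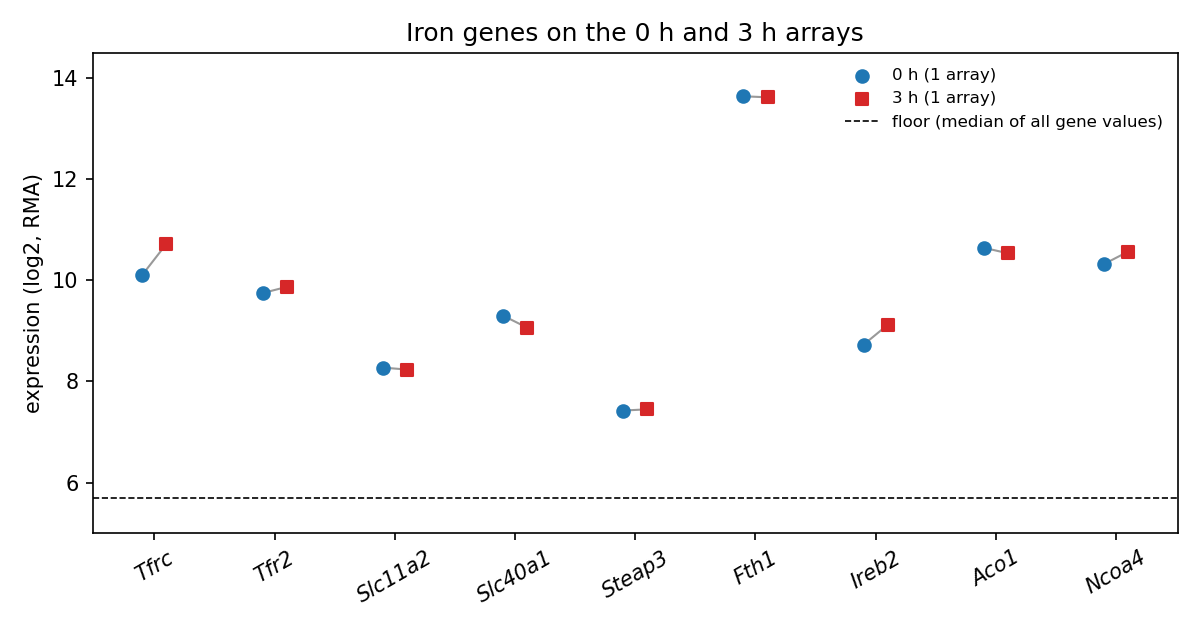
Log2 expression of the 9 measured iron genes on the 0 h array (blue circles) and the 3 h array (red squares), with a line joining both values of a gene and the floor of 5.70 dashed. All genes lie above the floor on both arrays, and Tfrc has the steepest line, from 10.11 to 10.72; heights of different genes are not comparable, since their probes differ.

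Tfrc encodes the receptor that brings most iron into erythroid cells. Its probe set (1422966_a_at) read 10.11 at 0 h and 10.72 at 3 h. The difference of 0.61 is a 1.53-fold higher level, just past the 1.5-fold line at 0.585, and it did not reach 2-fold. Among the 9284 genes at or above the floor, 6.29% had a difference at least as high. Markers of several cell types, given below, also differed between the arrays, and the part of these cells in the Tfrc value was not tested. The Tfrc promoter is known to hold an Ets site beside a CRE/AP-1-like site that is active in erythroid cells. The stretch with these letters is shown because Tfrc had the largest difference of the group. It is taken from RefSeq on GRCm38.p6 (chr16:32608897-32608926, plus strand), with the CRE-like letters in capitals and, just before them, a ggaag that holds the Ets core:
Tfrc: tgcggaaggaagTGACGTagatccagaggg

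These capitals begin at base 14 of the transcript from the first annotated start and 213 bases before the other annotated start. Promoter windows (250 bases before to 50 after each annotated start) were found for 8 of the 10 genes, 17 windows in all. On either strand TGACGT was in 7.51% of the 32851 windows of all genes and, among the iron genes, in the windows of Tfrc alone. The STAT5 motif TTCNNNGAA, in 8.30% of all windows, had no match in these 17.

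The second transferrin receptor gene, Tfr2, whose product senses transferrin saturation and associates with the erythropoietin receptor in erythroid progenitors, differed little. Its probe set (1459994_x_at) read 9.75 at 0 h and 9.87 at 3 h, a difference of 0.12. Steap3, the endosomal ferrireductase, read 7.42 and 7.45 (1423468_at), a difference of 0.03, which became -0.0036 after quantile normalization of both arrays. Both genes have a GATA motif before an annotated start, the motif bound by the erythroid factor GATA1, and these stretches are shown to set genes that differed little beside Tfrc. The motif is in capitals (for Steap3 it reads on the opposite strand), from RefSeq on GRCm38.p6, at chr1:120271108-120271137 on the minus strand for Steap3 and chr5:137570902-137570931 on the plus strand for Tfr2:
Steap3: gtccggagagtgTTATCTccctccagttat
Tfr2: gcctgtcagggcTGATAAggggccctctag

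The Steap3 match to AGATAA begins 45 bases before its annotated start and the Tfr2 match to TGATAA 61 bases before its own. AGATAA was in 11.2% and TGATAA in 9.05% of all windows, on either strand. A match describes these letters and is not a binding site, and Tfr2 and Steap3 each have further annotated starts whose windows lack the motif.

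The transporter genes did not move together. Slc11a2 encodes DMT1, which carries iron out of the endosome, and its probe set (1452078_a_at) read 8.28 at 0 h and 8.24 at 3 h, a difference of -0.04. Transcripts of Slc11a2 with and without an iron-responsive hairpin cannot be told apart by this probe set. Slc40a1, the gene of the exporter ferroportin, read 9.30 and 9.07 (1417061_at). Its difference of -0.24, a 1.18-fold lower level at 3 h, was the largest decrease of the group, and 46.4% of genes at or above the floor differed by at least as much in either direction. Macrophages and hepatocytes also express Slc40a1. Of their markers, given below, the 17 of hepatocytes that reached the floor were lower at 3 h. The 3 of macrophages that reached it were higher, and 12 lay below it on both arrays. The part of these cells in the Slc40a1 value was not tested. In a bulk sample fewer cells of a type and less RNA per cell cannot be told apart.

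Storage and release of iron were represented by Fth1 and Ncoa4. Fth1 encodes the ferritin heavy chain, which oxidises iron as it enters the ferritin shell. Its probe set (1448771_a_at) read 13.64 at 0 h and 13.62 at 3 h, a difference of -0.02 that became 0.04 after removal of an intensity trend. Its signal lay near the top of the arrays' range (14.73 at 0 h), where array signals can saturate. Ncoa4, the receptor that takes ferritin to the lysosome, read 10.33 and 10.57 (1450006_at), a difference of 0.25. Ferritin is controlled largely at translation, which arrays do not measure.

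Of the iron sensors, Ireb2 was higher and Aco1 nearly level. Ireb2 encodes IRP2, which is degraded when iron is plentiful, and its probe set (1433527_at) read 8.73 at 0 h and 9.12 at 3 h. This difference of 0.39 (1.31-fold) was the second highest of the group, and 14.2% of genes at or above the floor had one at least as high. Aco1 encodes IRP1, a cytosolic aconitase that binds messenger RNA when it lacks its iron-sulphur cluster. Its probe set (1456728_x_at) read 10.65 and 10.54, a difference of -0.11.

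In all, 5 of the 9 genes were higher and 4 lower at 3 h, beside 51.5% higher among all genes at or above the floor, where Steap3 turned negative after quantile normalization and Fth1 positive after removal of the trend. The median difference was 0.03, against 0.01 for all 9284 genes. Tfr2, Steap3, Fth1, Slc11a2 and Aco1, 5 of the 9, differed by less than 0.15. Tfr2 differed most of these, and 68.7% of genes at or above the floor differed by at least as much in either direction. The share of all genes under 0.15 was not computed. The middle 50% of all genes lay between -0.20 and 0.23, and Tfrc, Ireb2, Ncoa4 and Slc40a1 lay outside this span. The probe sets of Tfrc, Fth1 and Slc11a2 are of the kind that detects several transcripts of a gene, and those of Tfr2 and Aco1 of the kind whose probes can match other genes. None of the 9 genes was at least 2-fold higher or lower, where the share of all genes was 2.00% and 0.872%.

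**Figure D2:**
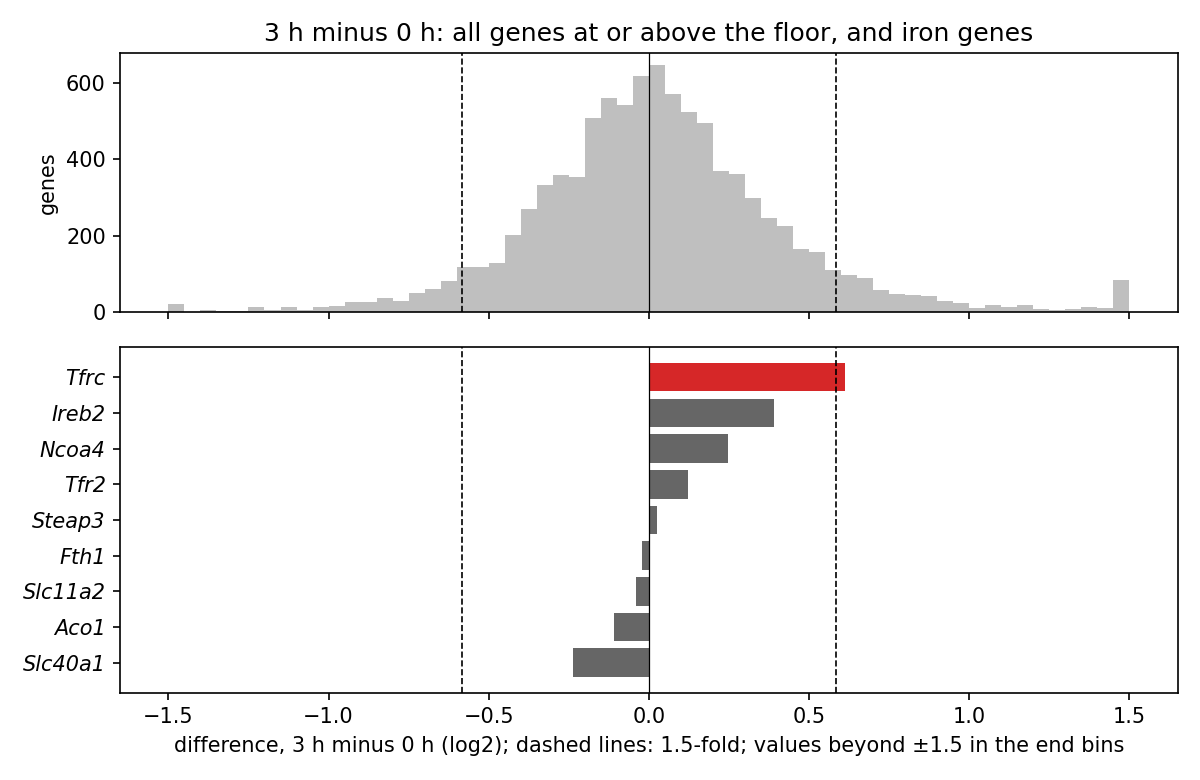
Top, the number of genes at each difference (3 h minus 0 h, log2) for the 9284 genes at or above the floor, with values beyond 1.5 collected in the end bins; bottom, the difference of each iron gene on the same axis. Dashed lines mark 1.5-fold. The bar of Tfrc (red, 0.61) passes the line, and the other 8 bars end between -0.24 and 0.39.

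Other genes of iron and haem handling were described from 6 lists, which hold 78 measured genes besides these 9. Of the 66 that reached the floor, 8 were higher by 1.5-fold or more and none was lower by as much, with a median of 0.09. Slc11a1, 1 of the 8, and Cdc14a reached the floor only at 3 h, so their directions were fixed by it. The shares among all genes were 6.94% and 4.80%.

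The transferrin cycle list holds the machinery that moves the receptor through endosomes, with Tfrc, Tfr2, Steap3 and Slc11a2 among its 14 genes at or above the floor. Besides Tfrc none passed 1.5-fold, and the median was 0.07. The early endosome GTPase gene Rab5a went from 10.80 to 11.20 (0.40). The recycling GTPase gene Rab11a went from 9.18 to 9.44 (0.26), and Rab12, whose GTPase directs the transferrin receptor to lysosomes, from 7.37 to 7.60 (0.23).

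Among genes of degradation and sensing of the iron regulatory proteins and ferritin, 9 reached the floor, 4 of them Ireb2, Aco1, Ncoa4 and Fth1. The median of these 9 was 0.29. Herc2, a ubiquitin ligase gene whose product acts on NCOA4, went from 6.81 to 7.50 and was the 1 gene past 1.5-fold (0.69). Fbxl5, which encodes the iron-sensing ligase subunit that marks IRP2 for degradation, went from 8.69 to 9.01 (0.32), so Ireb2 and the gene of its degrader were both higher. Cdc14a, a phosphatase gene whose human form has transcripts with an iron-responsive hairpin, went from 5.64 to 6.04 (0.40), crossing the floor. Its direction was fixed by the floor, so the median of 0.29 is not independent of it.

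The list of iron entry, export and systemic control went both ways. Of its 10 genes that reached the floor 3 were higher by 1.5-fold or more, and the median was -0.23, which became 0.02 with no floor and -0.05 with the floor at the 75th percentile of all gene values. Slc11a1, the phagosomal iron transporter gene of macrophages and granulocytes, went from 4.70, below the floor, to 6.03 (1.34). Its direction was fixed by the floor, so the count of 3 and the median of -0.23 are not independent of it. Hamp, the gene of the liver hormone hepcidin that removes ferroportin from the cell surface, went from 6.33 to 7.45 (1.11, or 2.16-fold). Slc39a8, a zinc and iron importer gene, went from 7.90 to 8.62 (0.72). Tmprss6, a liver protease gene whose product restrains hepcidin, went from 7.57 to 7.02 (-0.56). Hamp and Tmprss6 are genes of hepatocytes, and the difference was positive for the hormone and negative for its restrainer.

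Of 12 haem handling genes at or above the floor 1 passed 1.5-fold, and the median was 0.18 (0.02 with no floor, and 0.08 without probe sets that can match several transcripts or genes). That gene was Hp, of the haemoglobin-binding plasma protein haptoglobin, which went from 7.81 to 8.71 (0.91). The haem oxygenase gene Hmox1 went from 7.78 to 8.25 (0.47) and the lysosomal haem transporter gene Slc48a1 from 9.18 to 9.62 (0.44). The haem-binding plasma protein gene Hpx went from 11.62 to 12.00 (0.38). Hp and Hpx are secreted by hepatocytes, and Hp also by granulocytes.

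In mitochondria, where iron goes into haem and iron-sulphur clusters, the 20 genes at or above the floor had a median of -0.03, with 9 higher and 11 lower. The 1 gene past 1.5-fold was the inner membrane transporter gene Abcb10, from 8.60 to 9.26 (0.66). The erythroid iron importer gene Slc25a37, which encodes mitoferrin 1, went from 7.85 to 8.26 (0.41). The chaperone gene Hspa9 went from 9.50 to 9.05 (-0.46) and the ferredoxin gene Fdx1 from 10.52 to 10.14 (-0.38), neither past 1.5-fold. Among 10 haem synthesis genes the median was 0.22 (0.32 without probe sets that can match several transcripts or genes). Alad, from 8.47 to 9.29 (0.82), and Uros, from 9.08 to 9.88 (0.80), were past 1.5-fold. Alas1 (0.48) and Fech (0.37), which encode enzymes of the first and last steps, were higher by less. Alas2, the erythroid gene for the first step, read below the floor on both arrays (4.49 and 4.72).

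**Figure D3:**
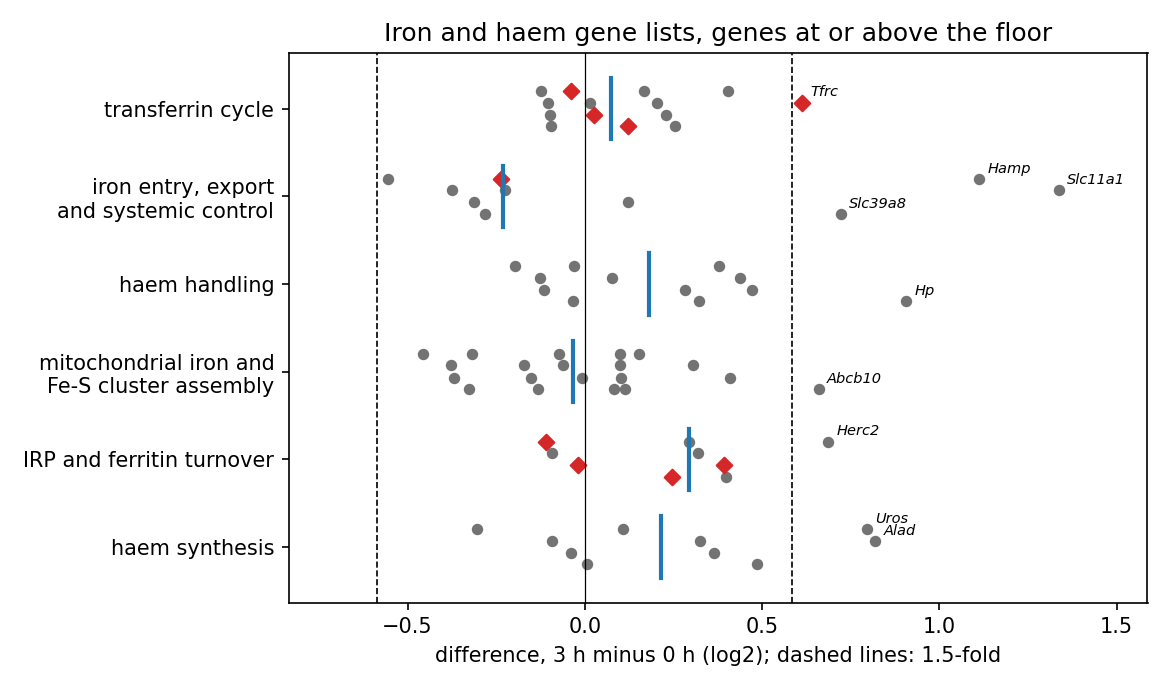
Differences (3 h minus 0 h, log2) of genes at or above the floor in 6 iron and haem lists; grey points are single genes, red diamonds the 9 iron genes described first, blue bars the list medians and dashed lines 1.5-fold. The points past the right-hand line are Tfrc, Slc11a1, Hamp, Slc39a8, Hp, Abcb10, Herc2, Alad and Uros, and no point lies past the left-hand line. Slc11a1 and Cdc14a reached the floor only at 3 h, where they were higher.

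Markers of the cell types that the sorted samples could hold were compared on the same arrays. Of 16 measured erythroid markers 15 reached the floor on each array, among them Car2 (13.24 and 13.20) and Klf1 (12.03 and 12.31), and their summed signal had a log2 of 14.48 at 0 h and 14.68 at 3 h. Their median difference was 0.18, with 12 higher, 6 of them by 1.5-fold or more, and 4 lower, 2 of them by as much. These counts and the median include Slc4a1 and Epb42, each of which reached the floor only on the array where it was higher. The directions of Slc4a1 and Epb42 were therefore fixed by the floor. The band 3 gene Slc4a1 (5.47, below the floor, to 8.30) and the erythroid factor gene Nfe2 (8.96 to 10.07) differed most. The membrane skeleton genes Ank1 (-0.62) and Epb42 (-0.68) were the 2 lower by 1.5-fold or more. Epb42 went from 5.91 to 5.23, below the floor at 3 h. Sptb, another membrane skeleton gene of the list, was higher by more than 1.5-fold (6.96 to 7.64, 0.68). These 3 genes were named after their values were seen.

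Hepatocyte markers were high on both arrays, although the cells were sorted as CFU-E. Of 18 measured, 17 reached the floor on both, among them Afp (14.60 and 14.53) and Alb (14.15 and 13.96). All 17 were lower at 3 h, with a median of -0.20 and a summed signal of 16.86 and 16.69 (log2), and Apob (-0.79) and Apoc1 (-0.75) differed most. Slc40a1, Tfr2 and Tmprss6 are expressed by hepatocytes as well, and the differences of Slc40a1 (-0.24) and Tmprss6 (-0.56) have the sign of these markers. Those of Tfr2 (0.12), Hamp, Hp and Hpx have the opposite sign. The part of hepatocytes in these values, or in those of the other iron genes, was not tested.

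Granulocyte markers were higher in all 10 of 11 measured that reached the floor, 7 of which reached it at 0 h. The median of these 10 was 0.97, which is not independent of the floor. Camp (5.11 to 6.78), Lcn2 (4.53 to 6.17) and Ngp (5.25 to 6.31) reached the floor only at 3 h, so their direction was fixed by it. The summed signal of the 11 measured was 12.68 and 13.62 (log2). S100a9 (9.72 to 11.67) and S100a8 (9.28 to 10.98) differed most, and Mpo went from 11.70 to 12.16. Of 15 macrophage markers 3 reached the floor, all higher at 3 h, among them Lyz2 (7.98 to 9.80) and Csf1r (8.32 to 9.32), and the summed signal was 9.88 and 11.00 (log2). The other 12 were below the floor on both arrays, among them the defining macrophage genes Adgre1 (5.39 and 5.64), C1qa (4.18 and 4.00) and Timd4 (3.21 and 2.94). Of these 12, Fcgr1 differed most (4.30 and 5.54, a difference of 1.24), while others such as Clec4f (4.52 and 4.17) were lower at 3 h. These genes below the floor were named after their values were seen. Slc11a1 and Hp, which myeloid cells express, were higher on the same array as the granulocyte markers, and the part of these cells was not tested. Slc11a1 reached the floor only at 3 h. Of 6 megakaryocyte markers (summed signal 8.17 and 8.57) 1 reached the floor at 0 h, Itga2b, at 7.14 and 7.05. At 3 h 4 did, and their median of 0.27 is not independent of the floor, since Gp1bb (4.49 to 6.68), Gp9 (5.63 to 6.10) and Pf4 (5.67 to 5.74) reached it only on the array where they were higher. Of 6 endothelial markers (summed signal 8.07 and 8.18) Kdr reached the floor on both arrays (6.97 and 6.93) and Pecam1 at 3 h only (5.69 and 5.96). Their median of 0.12 rests on these 2 genes and is not independent of the floor, since the direction of Pecam1 was fixed by it.

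**Figure D4:**
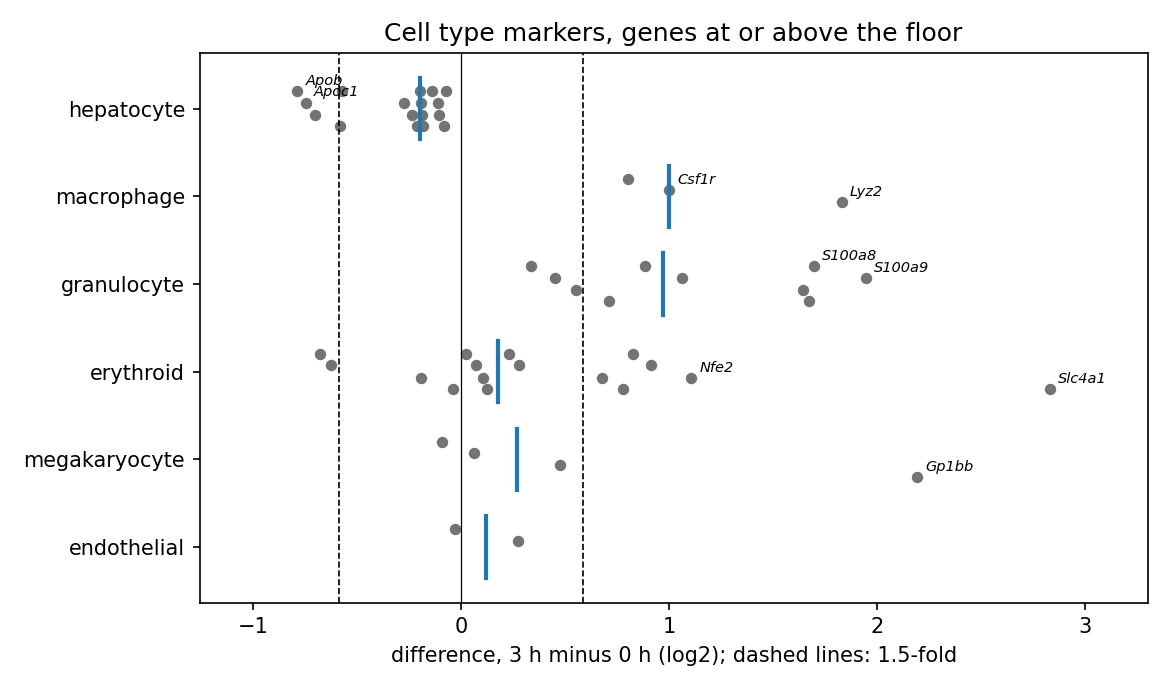
Differences (3 h minus 0 h, log2) of cell type markers at or above the floor, 1 point per gene, with list medians as blue bars and 1.5-fold dashed. Hepatocyte markers all lie below 0 and granulocyte markers all above it, while erythroid markers spread to both sides around a median of 0.18. Some granulocyte and megakaryocyte markers, Pecam1 and Slc4a1 reached the floor only at 3 h, where they were higher, and Epb42 only at 0 h.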

How the data were processed

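The deposited table holds log2 values of 20666 probe sets on 2 arrays. Per the submitters' processing notes, the authors used RMA and the affy package; tool versions, the set of arrays normalized and any probe set filter: not given in the sources used here. Per the labels' protocols, 1.5 µg of total RNA per sample was labelled as cRNA. RMA equalises distributions, so a shift of all transcripts would not be seen. A platform annotation named the probe sets (17918 with 1 gene, 79 with several, 2669 with none); those with 1 gene were averaged per symbol. Values were subtracted as deposited, without a test. The floor, the median of all gene values, left 9284 of 17874 genes. Named were all members, up to 4 genes of each other list with the largest difference at or above the floor, and, of each marker list, the 2 highest and the 2 most different. Members and lists were chosen with earlier results of these data known. Promoter windows are RefSeq's (GRCm38.p6). Alternatives were quantile normalization, removal of a loess trend (span 0.3), the brightest probe set of a gene, probe sets without suffixes, other floors and a 2-fold threshold. Python 3.11.15, pandas 2.3.3 and statsmodels 0.14.6 were used, and the steps were tested on simulated data. The changes planted there were 2-fold, so that test does not check a difference as small as that of Tfrc.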

Additional observations from a re-analysis of the deposited data

How the results depend on the processing

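Of 99 values recomputed under the alternatives, 89 stayed within 0.10 (log2), or within 1.5 times for counts, 10 moved further and 0 changed the sign of a difference past 1.5-fold. Only the difference of Tfrc was past 1.5-fold, so this 0 covers Tfrc alone. Below that line, Steap3, Fth1 and the median of the iron genes (0.03, or -0.0036 after quantile normalization) changed sign. So did the median of iron entry, export and systemic control (-0.23, or 0.02 with no floor). None of 31 recomputed differences of single iron genes moved by more than 0.10, and Tfrc ran from 0.61 to 0.64. Each of these genes has 1 probe set, however. Choosing the brightest probe set, or those without suffixes, could therefore not change the difference of a gene that remained. For single genes only quantile normalization and removal of the trend could do so. Without probe sets that can match several transcripts or genes, Tfrc, Tfr2, Slc11a2, Fth1 and Aco1 drop out, so the median of the iron genes became 0.14 and the count past 1.5-fold higher 0. That count was also 0 at a threshold of 2-fold. With the floor at the 75th percentile (7.96), 249 genes were 1.5-fold higher and 213 lower, since fewer genes were counted. No paired analysis was possible because each group has 1 array. No replicate could be left out for the same reason.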

Other observations

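Of the other iron and haem genes, 12 were below the floor of 5.70 on both arrays, where RMA shrinks differences. Among them the haem transporter family gene Flvcr2 went from 5.41 to 4.51 (-0.91) and the metalloreductase gene Steap4 from 4.99 to 5.59 (0.61). The erythroid haem synthesis gene Alas2, whose messenger RNA carries an iron-responsive hairpin, read 4.49 and 4.72. Such a value from 1 probe set says little about whether the gene is expressed. These genes were named after their values were seen.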
